A study of Mus musculus with 12 samples.

Results

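The 10 genes described here belong to the insulin and insulin-like growth factor (IGF) axis: the ligands Igf1 and Igf2, the receptors Igf1r and Insr, the receptor substrates Irs1 and Irs2, and the IGF-binding proteins Igfbp3, Igfbp4, Igfbp5 and Igfbp7. They were listed by name, with earlier results of these data known, from 54532 annotated genes. Of these, 12871 reached an FPKM (fragments per kilobase of exon, scaled to the mapped fragments of the library) of at least 1 in at least 3 libraries and were tested, 9 of the 10 axis genes among them. Igf2 stayed below that level.

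In this pathway insulin and the IGFs bind related receptor tyrosine kinases, which phosphorylate the IRS docking proteins and so activate PI3-kinase, AKT and mTOR, while AKT holds the FOXO transcription factors out of the nucleus. Outside the cell, binding proteins hold most IGF, and proteases release it by cleaving them. In bone, IGF signalling is known for promoting matrix formation by osteoblasts, and insulin is a standard component of media that drive adipocyte formation.

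RNA was measured by RNA-seq in cultures labelled bone marrow mesenchymal stem cells (MSCs) from C57BL/6 mice aged 4 weeks, used at passage 3. Control cultures, labelled WT, came from Chd7 fl/fl mice. The others, labelled KO and called knockout below, came from Prx1-cre;Chd7 fl/fl mice, in which Prx1-cre, active in limb bud mesenchyme and its descendants, removes exon 2 of the chromatin remodeller gene Chd7. All mice therefore carried the floxed allele, and only the knockout mice carried Cre. Each genotype was cultured for 5 days in osteogenic medium, with 50 μM ascorbic acid, 10 mM β-glycerophosphate and 10 nM dexamethasone, or in adipogenic medium, with 10 μg/ml insulin, 0.5 μM isobutylmethylxanthine and 1 μM dexamethasone. With 4 groups of 3 libraries there were 12 in all. The sources used here do not say whether the 3 libraries of a group came from separate mice, so the p-values below measure the spread between libraries, which may be technical.

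The libraries held between 17490798 and 21093451 fragments on genes. No difference in Chd7 itself passed the test, although in osteogenic medium each knockout library (2.03 to 2.35 FPKM) was below each control library (2.64 to 2.77 FPKM). Its log2 fold change was -0.20 in osteogenic medium (adjusted p = 0.160) and 0.09 in adipogenic medium (adjusted p = 0.428), and a whole-gene value covers mostly exons outside the deleted one. The marker genes did not single out stromal cells. Of 15 macrophage markers, all 15 averaged at least 1 FPKM in every group, with a summed level of 8123 to 19340 FPKM per library, against 1284 to 1962 FPKM for 12 stromal markers, of which 10 reached 1 FPKM. A single gene was the largest part of each sum, Lyz2 (3845 to 14410 FPKM) for macrophages and Col1a1 for stromal cells. The sums therefore do not measure cell numbers. The stromal surface marker Thy1 stayed between 0.21 and 1.03 FPKM, while Col1a1, the main collagen of bone, lay between 587 and 1073 FPKM. Of 12 adipocyte markers, 4 or 5 averaged at least 1 FPKM in each group. Adipoq and Plin1 stayed at or below 0.60 and 0.10 FPKM, also in adipogenic medium. Others on that list were higher in all libraries, such as Cebpa (40.8 to 108 FPKM), Lpl (53.8 to 117 FPKM) and Fabp4 (12.7 to 39.2 FPKM). Of the 5 adipocyte markers tested, 3 were higher and 0 lower in the knockout in adipogenic medium, beside 33.2% of all tested genes called. In such bulk RNA, fewer cells of a type and less RNA per cell cannot be told apart. Control library 2 in adipogenic medium stood apart from its group: its mean correlation across tested genes was 0.941 with the other libraries of the group. It was 0.9809 with the control osteogenic libraries, 0.9835 with the knockout osteogenic ones and 0.9669 with the knockout adipogenic ones. Knockout library 1 in adipogenic medium lay between its own group and the control group for several macrophage genes (Cd14 121 FPKM, against 32.4 and 37.8 in the other two). Leaving them out changed the call or the direction of some values, or moved them by more than 1.5 times. For the knockout comparison of the axis genes in adipogenic medium the value without them is then given, and elsewhere only for some values.

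The axis genes ranged from near silence to abundance (the plot of FPKM by library). On the FPKM scale, which is per length of exon, Igfbp7 had the highest level, with a mean over the 12 libraries of 314.5 FPKM, and it ranked 96th of the tested genes. Igfbp4 (37.8 FPKM) and Igf1 (26.4 FPKM) came next, followed by Irs2 (7.45 FPKM), Igf1r (5.44 FPKM), Igfbp5 (4.74 FPKM), Insr (3.92 FPKM), Irs1 (3.58 FPKM), Igfbp3 (1.09 FPKM) and Igf2 (0.0728 FPKM). Igfbp4 and Igf1 overlapped in their ranges over the libraries, as did each neighbouring pair from Irs2 to Irs1, so the order within these runs was not fixed. Both insulin genes, Ins1 and Ins2, were listed at 0 in all 12 libraries, as was Igfbp1.

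**Figure D1:**
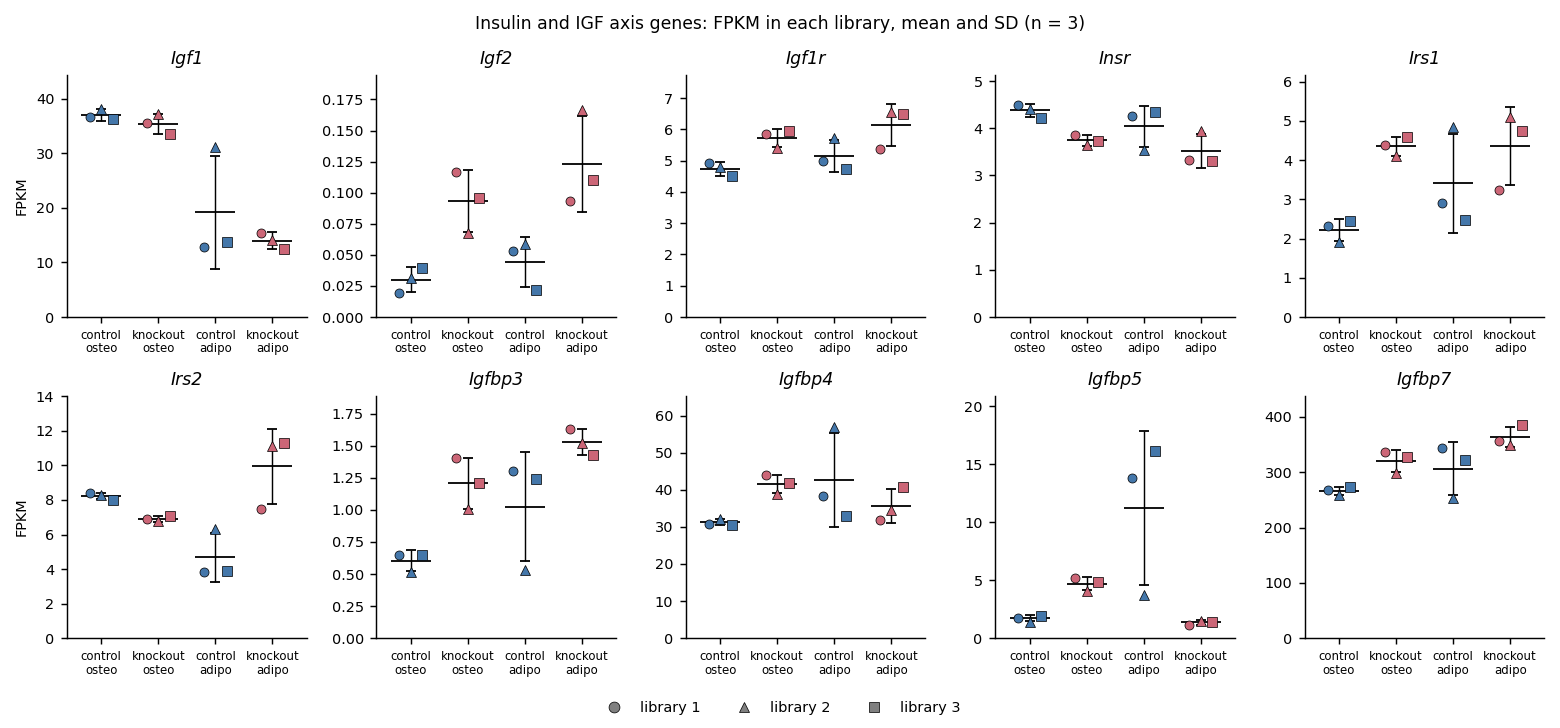
FPKM of the 10 axis genes in each library (points, shaped by library number), with the mean and SD of the 3 libraries of a group (black); each panel has its own vertical axis from 0. Control adipogenic library 2 (triangle) lies away from libraries 1 and 3 in Igf1, Irs1, Irs2, Igfbp3, Igfbp4 and Igfbp5, and by a smaller ratio in Igf1r, Insr and Igfbp7.

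In the knockout comparisons 3 of these genes were called. Irs1 was higher in the knockout in osteogenic medium, a call lost without any 1 of the 6 libraries. In adipogenic medium Irs2 was higher and Igfbp5 lower. Of all tested genes, 9.09% were called in osteogenic and 33.2% in adipogenic medium. For the called members, the sequence just upstream of their annotated starts is shown, from RefSeq (GRCm38.p6). It runs from 250 to 31 bases before the start, on the minus strand, which is the strand of all 3 genes. The RefSeq starts differ from the GENCODE M21 gene starts: they lie 23 bases upstream for Irs1, 471 bases upstream for Irs2 and 19 bases downstream for Igfbp5, and all 3 windows end upstream of the GENCODE start. Windows cover chr1:82291470-82291689 for Irs1, chr8:11008960-11009179 for Irs2 and chr1:72874896-72875115 for Igfbp5. The table of promoters had an entry for 9 of the 10 axis genes. Capitals mark matches, on either strand, to an E-box (CACGTG), a forkhead core (TGTTTT), a cAMP response element (TGACGTCA), a CCAAT box (CCAAT, or ATTGG on the other strand) or a TATA box (TATAAA):

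Irs1: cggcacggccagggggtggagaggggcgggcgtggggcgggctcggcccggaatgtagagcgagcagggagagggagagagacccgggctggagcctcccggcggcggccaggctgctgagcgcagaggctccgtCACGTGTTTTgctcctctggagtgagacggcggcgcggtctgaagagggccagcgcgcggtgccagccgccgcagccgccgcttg

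Irs2: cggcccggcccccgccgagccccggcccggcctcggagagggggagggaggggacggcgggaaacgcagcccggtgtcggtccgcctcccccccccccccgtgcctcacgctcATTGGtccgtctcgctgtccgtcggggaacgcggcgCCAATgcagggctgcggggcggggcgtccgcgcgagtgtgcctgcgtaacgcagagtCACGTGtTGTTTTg

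Igfbp5: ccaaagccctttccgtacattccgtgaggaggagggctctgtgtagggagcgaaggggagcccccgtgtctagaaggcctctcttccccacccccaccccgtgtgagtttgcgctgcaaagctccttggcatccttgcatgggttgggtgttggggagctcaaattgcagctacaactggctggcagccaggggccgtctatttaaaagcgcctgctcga

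Both substrate genes held an E-box next to a forkhead core. In Irs1 the E-box began 115 bases and the forkhead core 111 bases before the start, so that the matches overlapped, and in Irs2 they began 44 and 37 bases before it. Irs2 also held a CCAAT box on each strand. The Igfbp5 window held no exact match to these letters. Variants of the letters were not searched, nor were the bases nearer to the start than 31, so a TATA box there would be missed. Of 32851 promoter windows of the same length, 5.01% held the E-box, 18.3% the forkhead core, 1.14% the cAMP response element, 31.0% the CCAAT box and 9.95% the TATA box. The E-box and forkhead core at either of these spacings occurred in 9 windows (0.0274%), a pattern defined after these sequences were read. The matches are letters in a window, and nothing here measured binding to them.

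In GRCm38 (GENCODE M21 annotation), Igf1 lies at chr10:87858265-87937042, Igf2 at chr7:142650766-142666816, Igf1r at chr7:67952827-68233668 and Insr at chr8:3122061-3279617. Irs1 lies at chr1:82233101-82291416 and Irs2 at chr8:10984681-11008458. Igfbp3 lies at chr11:7206086-7213923, Igfbp4 at chr11:99041244-99054392, Igfbp5 at chr1:72857932-72874884 and Igfbp7 at chr5:77349240-77408041. The values are sums over all exons of a gene. Igfbp7 overlaps Polr2b, a subunit gene of RNA polymerase II on the opposite strand at 14.3 to 16.1 FPKM, and Igf1 overlaps the antisense gene Igf1os, at most 0.577 FPKM. Whether the counting used strand is not given in the sources used here.

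The first ligand, Igf1, the main circulating and local IGF after birth, was lower in adipogenic medium in both genotypes. Its level in osteogenic medium was 36.6, 38.2 and 36.2 FPKM in the control and 35.5, 37.2 and 33.5 FPKM in the knockout. The adipogenic values were 12.8, 31.1 and 13.7 FPKM in the control and 15.4, 14.1 and 12.5 FPKM in the knockout. All 6 adipogenic libraries lay below all 6 osteogenic ones, with control library 2 closest to the osteogenic level. The means fell from 37.0 ± 1.03 to 19.2 ± 10.3 FPKM in the control (SD, n = 3) and from 35.4 ± 1.83 to 14.0 ± 1.49 FPKM in the knockout (SD, n = 3). On the log2(FPKM + 1) scale used for all fold changes below, the medium difference was -1.03 (SE 0.257, adjusted p = 0.0197) in the control and -1.28 (SE 0.257, adjusted p = 0.00463) in the knockout.

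No difference between genotypes in Igf1 passed the test. The log2 fold change of the knockout was -0.06 in osteogenic medium (SE 0.257, adjusted p = 0.924). The adipogenic value was -0.32 (adjusted p = 0.367), and without control library 2 it turned to 0.07. That library therefore set the sign of this difference. The medium difference in the control lost its call without any 1 of the other 5 control libraries (adjusted p between 0.0543 and 0.0783), and without control library 2 of the adipogenic medium it was -1.42 (adjusted p = 1.019e-06).

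The second ligand, Igf2, a growth factor of fetal life that is imprinted, was close to silent. Its level was 0.0193 to 0.0395 FPKM in the control osteogenic libraries and 0.0676 to 0.117 FPKM in the knockout ones. Adipogenic values ran from 0.0216 to 0.0584 FPKM in the control and from 0.0930 to 0.167 FPKM in the knockout. The knockout libraries lay above the control libraries in both media without overlap, from very few fragments: 2, 3 and 4 against 12, 7 and 10 in osteogenic medium, and 5, 7 and 2 against 10, 18 and 12 in adipogenic medium. Summed over libraries and scaled by depth, the ratio of knockout to control was 3.12 in osteogenic medium (95% interval 1.44 to 7.50) and 2.70 in adipogenic medium (95% interval 1.44 to 5.38). These intervals cover counting error only, and Igf2 entered no test. The antisense gene Igf2os, which overlaps Igf2, reached at most 0.0499 FPKM.

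The receptors were expressed at similar levels and leaned in opposite directions. Igf1r, the IGF receptor, stood at 4.94, 4.79 and 4.50 FPKM in the control and 5.84, 5.41 and 5.96 FPKM in the knockout in osteogenic medium. Insr, the insulin receptor, stood at 4.50, 4.42 and 4.22 FPKM in the control and 3.86, 3.64 and 3.73 FPKM in the knockout. Neither gene's groups overlapped there, with the knockout above the control for Igf1r and below it for Insr. The log2 fold changes were 0.23 (SE 0.0807, adjusted p = 0.113) for Igf1r and -0.18 (SE 0.0745, adjusted p = 0.171) for Insr, and neither passed the test.

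In adipogenic medium Igf1r was 5.00, 5.72 and 4.72 FPKM in the control and 5.37, 6.57 and 6.48 FPKM in the knockout. Insr was 4.25, 3.55 and 4.34 FPKM in the control and 3.32, 3.94 and 3.31 FPKM in the knockout. The groups of both genes overlapped through control library 2, and the log2 fold changes of 0.22 (adjusted p = 0.0645) and -0.16 (adjusted p = 0.130) did not pass the test. Without that library both did, at 0.28 (adjusted p = 0.0124) for Igf1r and -0.23 (adjusted p = 0.0130) for Insr. Igf1r also passed without knockout library 1 and with an equal sum of FPKM in each library. Within a library, the level of Igf1r over that of Insr was 1.07 to 1.10 in the control osteogenic libraries and 1.49 to 1.60 in the knockout ones. In adipogenic medium this ratio was 1.18, 1.61 and 1.09 in the control and 1.62, 1.67 and 1.96 in the knockout. The ratio was higher in every knockout library than in every control library of its medium, by a narrow margin over control library 2, and no test was run on it.

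Among the substrates, Irs1, a docking protein that carries much of the growth signal of the IGF receptor, rose in the knockout in osteogenic medium. It was 2.32, 1.91 and 2.44 FPKM in the control and 4.38, 4.10 and 4.58 FPKM in the knockout, 1.96-fold higher on the ratio of mean FPKM. The 2 groups lay well apart. The log2 fold change was 0.74 (SE 0.188, adjusted p = 0.0374). It was the only axis gene called in this comparison, 1 of 9, beside 9.09% of all tested genes. The call was lost with no filter on low values, with an equal sum of FPKM in each library, and without any 1 of the 6 libraries, with a log2 fold change of 0.66 to 0.79 and an adjusted p between 0.0831 and 0.133.

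In adipogenic medium Irs1 was 2.90, 4.84 and 2.47 FPKM in the control and 3.23, 5.09 and 4.75 FPKM in the knockout. The ranges overlapped, and the log2 fold change of 0.30 did not pass the test (adjusted p = 0.239). Without control library 2 it was 0.52 (adjusted p = 0.0120). The difference between the media in the effect of the knockout on Irs1 was -0.43 (adjusted p = 0.271), and -0.21 without control library 2 (adjusted p = 0.407), so the 2 effects were not shown to differ.

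Irs2, the other main docking protein, which in liver carries much of the metabolic signal of insulin, behaved otherwise. In osteogenic medium it was 8.38, 8.30 and 8.03 FPKM in the control and 6.88, 6.77 and 7.08 FPKM in the knockout. Under adipogenic induction it was 3.83, 6.33 and 3.91 FPKM in the control and 7.46, 11.1 and 11.3 FPKM in the knockout. The knockout lay below the control in the first medium and above it in the second, both without overlap. In adipogenic medium the ratio of mean FPKM was 2.12 and the log2 fold change 0.95 (SE 0.170, adjusted p = 0.00233), whereas the osteogenic value of -0.22 did not pass the test (adjusted p = 0.491).

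The effects of the knockout on Irs2 differed between the media by 1.17 on the log2 scale (SE 0.240, adjusted p = 0.00774). In adipogenic medium the rise held without each of the 6 libraries in turn, between 0.85 and 1.15, and was 1.32 without control library 2 and knockout library 1. Between the control cultures, adipogenic against osteogenic medium, the log2 fold change of Irs2 was -0.73 (adjusted p = 0.0154). That call was lost (adjusted p between 0.0508 and 0.0622) without osteogenic library 1 or 2 or adipogenic library 1 or 3. In the knockout the corresponding value was 0.45 (adjusted p = 0.0754), and 0.62 without knockout library 1 (adjusted p = 0.0179).

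The balance of the substrates shifted with both factors. Within a library, Irs2 over Irs1 was 3.62, 4.35 and 3.29 in the control osteogenic libraries and 1.57, 1.65 and 1.55 in the knockout osteogenic ones. It was 1.32, 1.31 and 1.58 in the control adipogenic libraries and 2.31, 2.18 and 2.37 in the knockout adipogenic ones. The knockout ratio was the lower in osteogenic medium and the higher in adipogenic medium, in every library. Control adipogenic library 2, whose Irs1 and Irs2 were both the highest of its group, had the same ratio as library 1 of its group to within 0.02. No test was run on these ratios.

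Of the binding proteins, Igfbp5, which is abundant in bone matrix and binds IGFs there, moved most. It was 1.77, 1.43 and 1.94 FPKM in the control and 5.16, 4.08 and 4.85 FPKM in the knockout in osteogenic medium. The adipogenic levels were 13.8, 3.68 and 16.2 FPKM in the control and 1.15, 1.49 and 1.40 FPKM in the knockout. The knockout was above the control in osteogenic medium and below it in adipogenic medium, without overlap in either. The mean in adipogenic medium was 11.2 ± 6.62 FPKM in the control and 1.35 ± 0.176 FPKM in the knockout (SD, n = 3), 8.30-fold lower, with a log2 fold change of -2.17 (SE 0.384, adjusted p = 0.00219).

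In osteogenic medium the log2 fold change of Igfbp5 was 1.07 (SE 0.384), 2.74-fold on the ratio of mean FPKM, and did not pass the test (adjusted p = 0.122). The spread estimated over all 12 libraries included the wide control adipogenic group. In a fit of the 6 osteogenic libraries alone the adjusted p was 0.000671. The effects of the knockout differed between the media by -3.24 (SE 0.543, adjusted p = 0.00279). Without each library in turn this difference lay between -3.83 and -2.89 and the adipogenic effect between -2.76 and -1.82, all called. Adipogenic against osteogenic medium, the log2 fold change of Igfbp5 was 1.97 in the control (adjusted p = 0.00764) and -1.28 in the knockout (adjusted p = 0.0321). The control call was lost in a fit of the control libraries alone (adjusted p = 0.0830). The knockout call was lost without any 1 of the 6 knockout libraries (adjusted p between 0.0656 and 0.0894).

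The fall of Igfbp5 went along with macrophage genes in the same libraries (the plot beside Adgre1 and Mrc1). Adgre1, which encodes the macrophage surface protein F4/80, was 1171, 227 and 1136 FPKM in the control adipogenic libraries and 255, 130 and 127 FPKM in the knockout ones, against 183 to 215 FPKM in osteogenic medium. Mrc1, the mannose receptor of alternatively activated macrophages, ran the other way, at 36.8, 107 and 35.7 FPKM in the control and 62.6, 110 and 101 FPKM in the knockout adipogenic libraries. In adipogenic medium the groups of Adgre1 and of Mrc1 overlapped through control library 2, unlike those of Igfbp5. Of the 15 macrophage markers, 3 were higher and 7 lower in the knockout in adipogenic medium, beside 33.2% of all tested genes called. Their summed levels were 9904 to 19340 FPKM in the control and 8123 to 9564 FPKM in the knockout. Lyz2 alone, the largest part of each sum, was 13880, 5456 and 14410 FPKM in the control and 5010, 3845 and 3986 FPKM in the knockout. Control library 2 lay near the osteogenic libraries for Adgre1, Mrc1 and Igf1. The part of these cells in the Igfbp5, Irs2 and Igf1 results was not tested.

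**Figure D2:**
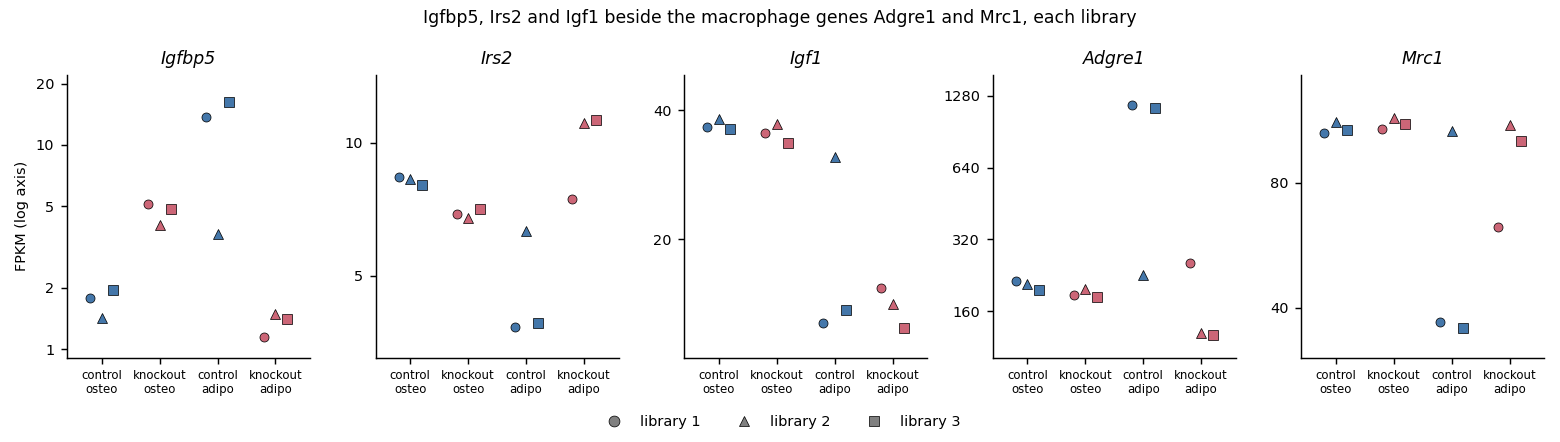
FPKM of Igfbp5, Irs2, Igf1 and the macrophage genes Adgre1 and Mrc1 in each library (points, shaped by library number), on logarithmic axes that differ between panels. In control adipogenic libraries 1 and 3, Igfbp5 and Adgre1 are at their highest and Irs2 and Mrc1 at their lowest, while library 2 lies between these and the knockout libraries or with the osteogenic ones.

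Igfbp3, the main carrier of IGF in blood, was low. It was 0.65, 0.51 and 0.65 FPKM in the control and 1.41, 1.01 and 1.21 FPKM in the knockout in osteogenic medium, from 27 to 79 fragments a library. The adipogenic libraries had 1.30, 0.53 and 1.24 FPKM in the control and 1.63, 1.53 and 1.43 FPKM in the knockout. The knockout lay above the control in both media without overlap. On the ratio of mean FPKM it was 1.99-fold higher in osteogenic and 1.49-fold higher in adipogenic medium. At such levels the 1 FPKM added before taking logs shrinks the log2 fold change. The log2 fold changes of 0.46 (adjusted p = 0.0837) and 0.34 (adjusted p = 0.0954) did not pass the test, and the second was 0.15 without control library 2 (adjusted p = 0.205). The second did pass with an equal sum of FPKM in each library (adjusted p = 0.0220).

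Igfbp4, which in bone mostly restrains IGF action, was 30.9, 32.2 and 30.6 FPKM in the control and 43.9, 38.9 and 41.8 FPKM in the knockout in osteogenic medium. After adipogenic induction it stood at 38.2, 57.0 and 32.9 FPKM in the control and 31.8, 34.6 and 40.7 FPKM in the knockout. The groups were apart in osteogenic medium and overlapped in adipogenic medium, where control library 2 was the highest of all 12 libraries. The log2 fold changes were 0.40 (adjusted p = 0.177) and -0.22 (adjusted p = 0.332), and the second became 0.0033 without that library. Neither passed the test.

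Igfbp7, which binds IGFs weakly and is made by many stromal and vascular cells, was 266 ± 7.23 FPKM in the control and 321 ± 20.04 FPKM in the knockout in osteogenic medium (SD, n = 3). In adipogenic medium it was 307 ± 48.1 FPKM in the control and 364 ± 18.4 FPKM in the knockout (SD, n = 3). In both media each knockout library was above each control library. The log2 fold changes of 0.27 (adjusted p = 0.141) and 0.26 (adjusted p = 0.0759) did not pass the test, and the second was 0.12 without control library 2 (adjusted p = 0.118). The second did pass without control library 1 (adjusted p = 0.0328) and with an equal sum of FPKM in each library (adjusted p = 0.00209).

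In osteogenic medium 8 of the 9 tested axis genes, all but Igf1, had groups that did not overlap, 6 of them higher and 2 lower in the knockout. Among all tested genes this held for 44.3%. In a fit restricted to the 6 osteogenic libraries those 8 genes were called, where 26.6% of all tested genes were, so the count of axis genes called went from 1 to 8 with the libraries that set the spread. In adipogenic medium 2 of 9 were called, 1 higher and 1 lower, beside 33.2% of all tested genes, and 4 of 9 did not overlap, beside 38.6%. A fit of the 6 adipogenic libraries alone called 2 of 9, beside 13%. Without control library 2 there were 5 of 9 called, beside 51.0%, and without knockout library 1 as well 5 of 9, beside 52.0%. For the difference between media 2 of 9 were called, 1 in each direction (10.9% of all tested genes in the positive and 9.58% in the negative direction), beside 20.4% in all. That count was 3 of 9 without control library 2, beside 42.2%, with Igfbp4 added, and 2 of 9 without the pair, beside 45.9%. The Igfbp4 difference was -0.40 without control library 2, against -0.62 with all libraries.

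Adipogenic against osteogenic medium called 3 of 9 in the control, beside 22.8%, and 2 of 9 in the knockout, beside 27.9%. Groups did not overlap for 5 of 9 in each genotype, beside 34.4% of all tested genes in the control and 52.5% in the knockout. Fits of only the libraries compared called 0 of 9 in the control with limma (3 at an unadjusted p under 0.05), beside 3.81%, and 3 of 9 in the knockout, beside 37.4%. Without control library 2 the control count was 5 of 9, beside 47.8%, with Igfbp3 (0.50, adjusted p = 0.00163) and Igfbp7 (0.33, adjusted p = 0.00160) added. Without the pair it was 5 of 9 in each genotype, beside 50.2% in the control and 42.4% in the knockout. These comparisons share their groups with the knockout comparisons and are not independent of them.

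**Figure D3:**
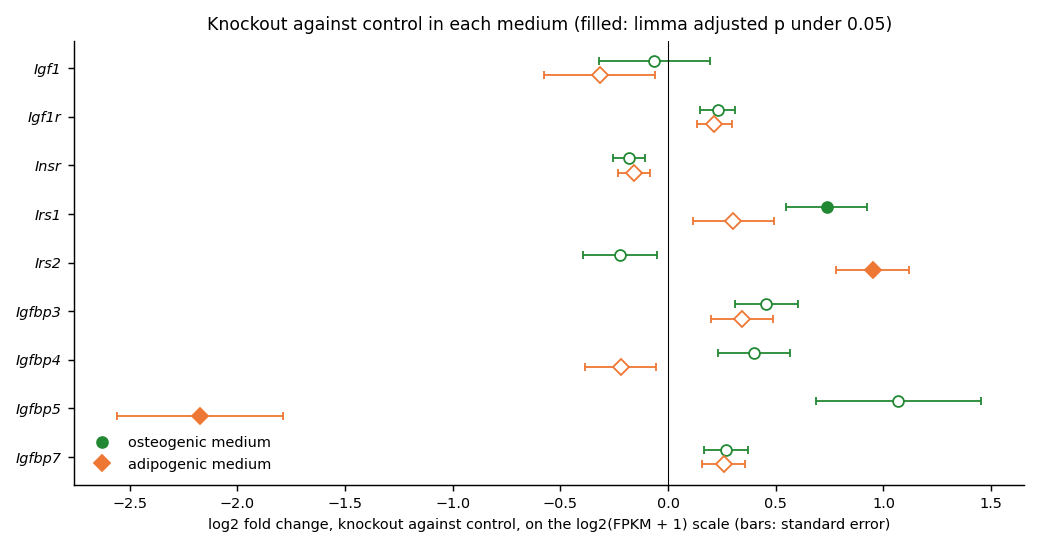
Log2 fold change of the 9 tested axis genes, knockout against control, on the log2(FPKM + 1) scale, in osteogenic (circles) and adipogenic medium (diamonds), with standard errors; filled symbols passed the test. Irs1 is filled in osteogenic medium at 0.74, and Irs2 at 0.95 and Igfbp5 at -2.17 are filled in adipogenic medium.

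The rest of the pathway was read from 79 other genes in 6 lists, 63 of them tested. In osteogenic medium 8 were higher and 4 lower in the knockout, with a median log2 fold change of 0.0078. In adipogenic medium 14 were higher and 8 lower, with a median of -0.0239. Over all tested genes the medians were -0.0064 and -0.0145, and 4.94% were higher and 4.15% lower in osteogenic medium, against 16.7% and 16.5% in adipogenic medium.

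Among other ligands, receptors and carriers, 4 of 10 were tested. Ghr, the growth hormone receptor, was the only one called. Its level was 4.65, 4.78 and 4.51 FPKM in the control and 5.78, 5.69 and 5.90 FPKM in the knockout in osteogenic medium (log2 fold change 0.27, adjusted p = 0.0386), a call lost without any 1 of these libraries. Under adipogenic induction it stood at 3.60, 4.11 and 3.43 FPKM in the control and 5.59, 6.54 and 6.58 FPKM in the knockout (0.62, adjusted p = 0.000145), a call kept without each library in turn.

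Of the proteases that cut binding proteins and the inhibitors of those proteases, 4 of 8 were tested. Adam12, a metalloprotease known to cleave Igfbp3 and Igfbp5, fell in the knockout in osteogenic medium and rose in adipogenic medium. It was 6.62, 6.19 and 6.87 FPKM in the control and 3.79, 4.10 and 4.41 FPKM in the knockout in the first (-0.57, adjusted p = 0.00315). It was 3.55, 2.74 and 3.47 FPKM in the control and 9.03, 10.5 and 10.1 FPKM in the knockout in the second (1.36, adjusted p = 4.963e-06). The groups were apart in both, in the direction opposite to Igfbp5, and the difference between media was 1.93 (adjusted p = 9.026e-06). Adam9, a related metalloprotease, rose in adipogenic medium by 0.27 (adjusted p = 0.000623). Pappa, which cleaves Igfbp4, was 0.30 higher in osteogenic medium (adjusted p = 0.0361), a call kept without 1 of the 6 libraries and lost without each of the other 5.

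Adaptors and inhibitors at the receptors had 17 of 19 genes tested, with 2 higher and 0 lower in osteogenic medium and 4 each way in adipogenic medium. Of all tested genes, 9.09% were called in the first medium and 33.2% in the second. Ptpn1, the phosphatase that switches off the insulin receptor, was 56.4, 45.7 and 57.3 FPKM in the control and 27.5, 30.2 and 31.7 FPKM in the knockout in adipogenic medium (-0.81, adjusted p = 8.233e-05). Socs2, a brake on growth hormone signalling, was 0.57, 0.93 and 0.62 FPKM in the control and 1.88, 2.12 and 1.93 FPKM in the knockout (0.81, adjusted p = 0.000123, and 2.79-fold on the ratio of mean FPKM). Both kept their call without each library in turn, and both effects differed from those in osteogenic medium (-0.66, adjusted p = 0.00331, and 0.84, adjusted p = 0.00133). Socs1, an inhibitor of cytokine and insulin signalling, was 4.14, 0.76 and 3.27 FPKM in the control and 0.73, 0.77 and 0.89 FPKM in the knockout. Its groups overlapped through control library 2, and its call (-0.91, adjusted p = 0.0471) was lost in 5 of 6 fits without a library. The other fit, without control library 2, kept it at -1.39, and without the pair of libraries the value was -1.36 (adjusted p = 1.938e-05). In osteogenic medium Nedd4, a ubiquitin ligase that acts with Grb10 on the IGF receptor, rose by 0.42 (adjusted p = 0.00316). Grb14, an inhibitor of the insulin receptor, was 0.46 higher (adjusted p = 0.0245), a call lost without any 1 of the 6 libraries. The adaptor Sh2b2 differed between the media by -0.82 (adjusted p = 0.0240), a call kept in 4 of 12 fits without a library.

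In the PI3K, AKT and mTOR arm all 25 genes were tested. In osteogenic medium 1 was higher and 1 lower, beside 9.09% of all tested genes called. In adipogenic medium 4 were higher and 2 lower, beside 33.2%. Pik3r1, the main regulatory subunit of PI3-kinase, was 18.3, 18.0 and 17.9 FPKM in the control and 12.0, 11.5 and 11.0 FPKM in the knockout in osteogenic medium (-0.61, adjusted p = 0.00151). Pik3r3, another regulatory subunit, rose there by 0.40 (adjusted p = 0.00381), and this call and that of Nedd4 were lost with an equal sum of FPKM in each library. In adipogenic medium the catalytic subunit gene Pik3cb fell by 0.44 (adjusted p = 0.00806) and the transcription factor gene Foxo1 rose by 0.43 (adjusted p = 0.00443), both kept without each library in turn and lost in a fit of the 6 adipogenic libraries alone. Foxo4 was 0.28 higher (adjusted p = 0.0172), which held in 3 of 6 fits without a library and was lost in a fit of the adipogenic libraries alone and with the replicate block. Its effect, that of Pik3r1 and that of Inppl1, a lipid phosphatase, differed between media by 0.53, 0.76 and 0.33 (adjusted p = 0.00662, 0.00143 and 0.0190), and the value for Inppl1 lost its call without knockout adipogenic library 3.

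Genes that FOXO factors are known to induce, 11 of 12 tested, moved in both directions, with 3 higher and 2 lower in osteogenic medium, beside 9.09% of all tested genes called, and 2 higher and 1 lower in adipogenic medium, beside 33.2%. Pdk4, the kinase that shuts down pyruvate dehydrogenase, had the largest change among them. It was 29.1, 30.2 and 29.0 FPKM in the control and 25.6, 28.1 and 27.8 FPKM in the knockout in osteogenic medium. The adipogenic levels of Pdk4 were 17.4, 42.0 and 19.9 FPKM in the control and 86.3, 96.8 and 94.8 FPKM in the knockout (1.88, adjusted p = 0.000409), and the log2 fold change was 2.30 without the pair of libraries standing apart (adjusted p = 1.032e-08). The difference between media was 1.99 (adjusted p = 0.00354). Txnip, an inhibitor of thioredoxin and glucose uptake, fell in both media, by -0.61 (adjusted p = 0.000568) and -0.31 (adjusted p = 0.00635), the second not called with an equal sum of FPKM in each library or in a fit of the adipogenic libraries alone. Sesn3, a stress-induced regulator of mTOR, rose by 0.54 in osteogenic medium (adjusted p = 0.00252). Fbxo32, a ubiquitin ligase of muscle wasting, was 0.49 higher there (adjusted p = 0.0416), which was lost without any 1 of the 6 libraries. Both differed between the media, by -0.67 (adjusted p = 0.00265) and -0.84 (adjusted p = 0.0103). Cited2, a transcriptional co-regulator, was 0.27 higher in osteogenic medium (adjusted p = 0.0303), a call lost without any 1 of the 6 libraries, and 0.23 higher in adipogenic medium (adjusted p = 0.0201), a call kept in 4 of 6 fits without a library.

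At the Igf2 locus and among its RNA-binding proteins, 2 of 5 genes were tested. H19, the noncoding RNA imprinted opposite to Igf2, was 0.82, 2.08 and 0.48 FPKM in the control and 3.10, 4.08 and 2.84 FPKM in the knockout in adipogenic medium (1.09, adjusted p = 0.00584), a call lost in a fit of the adipogenic libraries alone. In osteogenic medium it was 3.56, 2.90 and 2.51 FPKM in the control and 6.13, 6.65 and 5.49 FPKM in the knockout, without overlap (0.83, adjusted p = 0.0513). Igf2bp2, which binds Igf2 mRNA, was 11.4, 4.71 and 11.3 FPKM in the control and 4.42, 4.17 and 4.09 FPKM in the knockout in adipogenic medium (-0.87, adjusted p = 0.0191), a call lost in 4 of 6 fits without a library, while without the pair of libraries standing apart it was -1.26 (adjusted p = 1.323e-07).

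**Figure D4:**
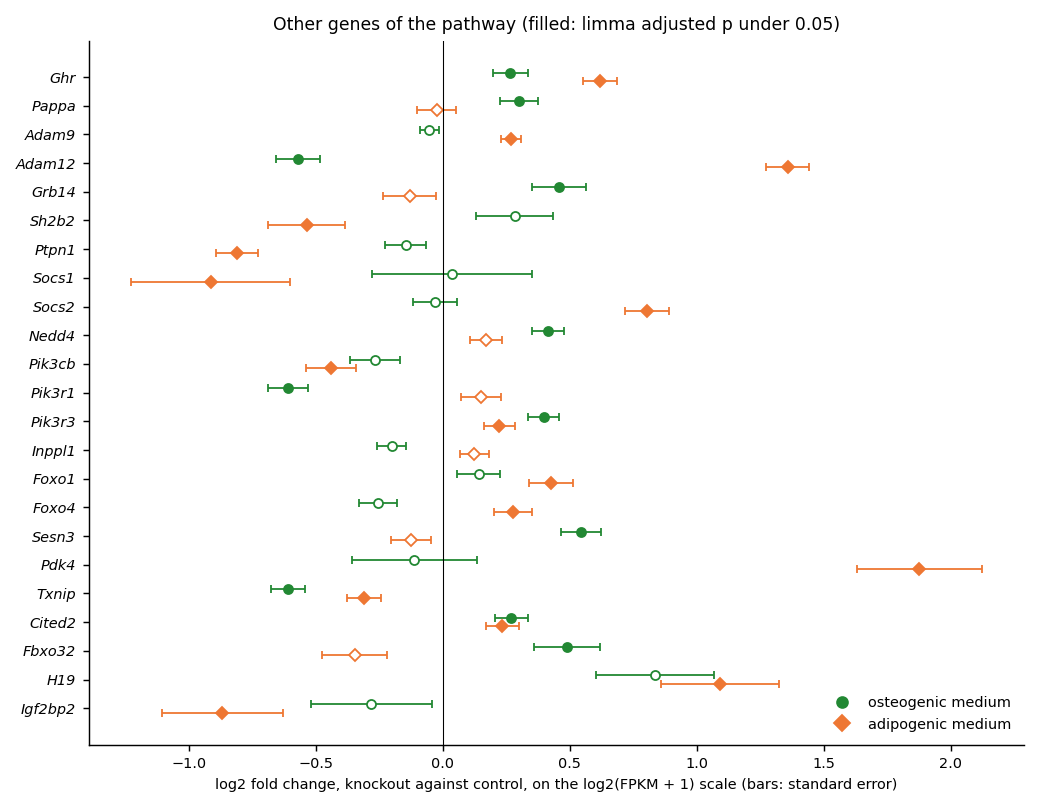
Log2 fold change, knockout against control, on the log2(FPKM + 1) scale, of the named genes of the 6 pathway lists in osteogenic (circles) and adipogenic medium (diamonds), with standard errors; filled symbols passed the test. Adam12 runs from -0.57 to 1.36 between the media, and Pdk4 stands at 1.88 in adipogenic medium.

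Across the 12 libraries, which share groups and media, the tested genes with patterns most like each axis gene were found by Pearson's r of log2(FPKM + 1), as a description. Igfbp3 and Igfbp7 were each other's closest gene among all tested genes (r = 0.967). The genes closest to Igfbp5 included Cd300ld (0.980) and Gzme (0.976), and Irs2 was closest to Ahnak (0.987), Acaa2 (0.974) and Pacs2 (0.971). Irs1 was closest to Runx3 (0.974), Synpo (0.973) and Cdkn2a (0.961), and Igf1 to Cracr2a (0.994), Smc6 (0.987) and Ttc7 (0.977). For Igf1r these were Ier5l (0.966), Vcl (0.964) and Tmem203 (0.958), for Insr Srrm2 (0.960), Ubn2 (0.946) and Itsn2 (0.945), and for Igfbp4 Morn4 (0.924), Snrnp25 (0.903) and Raly (0.903). After Igfbp7, Igfbp3 was closest to Selenow (0.957) and Epas1 (0.952), and after Igfbp3, Igfbp7 to Mdga1 (0.959) and Hist1h2bc (0.959). No other axis gene was among any axis gene's 3 closest.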

How the data were processed

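The authors deposited 1 table of FPKM per gene and library. The study's software list names HISAT2 and Ballgown, and the submitters' processing notes list Bowtie 0.12.2 and mm9, without a role. Its gene identifiers carry no coordinates, and 99.8% of them were paired with a symbol from GENCODE M21. Fragments were recovered as FPKM times exonic length, scaled per library, and 98.2% to 98.4% of the values under 30 fragments were whole within 0.02, against 4% by chance. These give the depth and the Igf2 intervals.

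FPKM was tested as log2(FPKM + 1) with limma 3.58.1 (R 4.3.3), with an intensity trend, in 1 fit of 12 libraries with a mean for each of 4 groups. Genes with at least 1 FPKM in at least 3 libraries were tested, and p-values were adjusted by Benjamini-Hochberg over all of them at 0.05. Exact permutation of 3 against 3 libraries cannot go below p = 0.1. Alternatives were other pseudocounts, filters, scalings and spread estimates, limma voom on the fragments, a replicate block, and each library left out. The pair of libraries standing apart was left out as an alternative chosen after seeing the data.

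Named were the 10 axis genes, Chd7, up to 3 called genes with the largest change per pathway list and knockout comparison, the 3 genes most like each axis gene, and overlapping genes. 1 gene that this rule names is not reported here. Cd14, Adgre1, Mrc1 and other markers come from fixed marker lists, and the few singled out were chosen after their values were seen. The members and lists were chosen with earlier results of these data known.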

Additional observations from a re-analysis of the deposited data

Results flagged for a closer look

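The effect of the knockout differed between the media, by the test of that difference, for 2 of the 9 tested axis genes. For Irs2 the difference was 1.17 on the log2 scale (adjusted p = 0.00774), from -0.22 in osteogenic to 0.95 in adipogenic medium. For Igfbp5 it was -3.24 (adjusted p = 0.00279), from 1.07 to -2.17. Both were called in all 12 fits that left out 1 library and in all 7 other settings, and without control library 2 and knockout library 1 of the adipogenic medium they were 1.55 and -3.77. Macrophage genes such as Adgre1 also stood apart in control adipogenic libraries 1 and 3, and their part in these differences was not tested.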

How the results depend on the processing

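Depth limits Igf2 and Igfbp3, which rest on few fragments. Over the 9 tested axis genes, 5 comparisons and all alternatives, 624 values kept their direction and call, 31 gained a call, 28 lost it and 28 reversed, none of the last a called value. An equal sum of FPKM in each library moved the median of all tested genes in adipogenic medium from -0.0145 to 0.1376, so changes under that scaling are relative to it. The cause of the changes below was not tested, except that fits of only the libraries compared take their spread from fewer samples.

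Axis genes called, knockout against control in osteogenic medium, went from 1 to 0 by limma with no filter or an equal sum of FPKM (7 and 5 at an unadjusted p under 0.05), and to 8 with only the libraries compared. All tested genes called there went from 1170 to 526 with an equal sum, 3418 with only the libraries compared and 744 with the replicate block. In adipogenic medium the axis genes called went from 2 to 5 with an equal sum, which added Igf1r, Igfbp3 and Igfbp7. Each was higher in the knockout, the direction in which that scaling moved the median. Without the pair of libraries standing apart they also went from 2 to 5, with Igf1r, Insr and Irs1 added. All tested genes called went from 4276 to 6692 without the pair and to 1671 with only the libraries compared. Without that pair, 5902 tested genes in place of 2630 differed between media. Adipogenic against osteogenic medium in the control gave 0 axis genes and 490 of all genes with only the libraries compared, 1943 of all genes with the replicate block, and 5 and 6466 without the pair, in place of 3 and 2935. In the knockout it gave 1 axis gene with no filter or with voom, and 5 and 5463 of all genes without the pair, in place of 2 and 3592.

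Without the pair, the knockout log2 fold change in adipogenic medium reversed to 0.0059 for Igf1 and 0.0804 for Igfbp4, the difference between media to 0.0701 for Igf1, 0.1308 for Igf1r and -0.0173 for Insr, and the medium difference in the knockout to 0.1458 for Irs1. With an equal sum, the difference between media reversed to 0.1486 for Igf1r and 0.1855 for Igfbp7, the medium difference to -0.0125 for Igf1r in the control and to 0.0367 for Irs1 in the knockout.

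Without 1 library at a time, axis genes called ranged from 0 to 0 by limma (3 to 6 at an unadjusted p under 0.05) and all tested genes called from 532 to 670 for the knockout in osteogenic medium, from 2 to 5 and 2791 to 6569 in adipogenic medium, and from 2 to 3 and 1798 to 5434 for the difference between media. For adipogenic against osteogenic medium they ranged from 1 to 5 and 1361 to 6156 in the control, and from 1 to 2 and 2500 to 2864 in the knockout. The highest counts in adipogenic medium, for the difference and in the control came without control library 2. In the same fits the knockout log2 fold change in adipogenic medium ranged from -0.5369 to 0.0742 for Igf1. For Igfbp4 it ranged from -0.3845 to 0.0033. The difference between media ranged from -0.4727 to 0.1384 for Igf1, -0.0654 to 0.0649 for Igf1r, -0.0489 to 0.0677 for Insr and -0.145 to 0.0784 for Igfbp7, and the medium difference in the knockout from -0.1164 to 0.1458 for Irs1.

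Libraries with the same number did not deviate together in every pair: the correlations of same-numbered deviations were 0.466, 0.397 and -0.286 for the knockout comparison in adipogenic medium and between -0.0375 and 0.0576 in osteogenic medium. With the replicate block, 1, 2, 2, 3 and 2 axis genes were called, as without it, and all tested genes called were 744, 3889, 2176, 1943 and 2882. Among the named pathway genes the block ended the calls of Ghr, Cited2 and Fbxo32 in osteogenic medium, of Socs1 and Foxo4 in adipogenic medium, and of Ghr for the difference between media.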
